A study of Homo sapiens with 8 samples.

Results

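Nuclear receptors other than the PPARs and the corticosteroid receptors were followed in MDA-MB-231 cells treated with TGFβ. A list of 40 receptor genes was matched by symbol to the array annotation, and 33 of them had at least 1 probe set naming that gene alone, out of 19775 genes measured in this way. Each gene was represented by its probe set with the highest mean signal over the 8 arrays, and all 4 probe sets were kept for VDR. NR0B1, NR1D1, NR1H2, NR1H4, NR1I2, NR2F2 and HNF4A were not analysed here as single genes.

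MDA-MB-231 is a human line derived from metastatic breast cancer. The cells carried a retroviral short hairpin against GFP in both groups and had been without serum for 24 h. The TGFβ group, with 4 arrays, then received TGFβ, for which the labels give 5 µg/ml and 3 h. The untreated group, also with 4 arrays, received none. Cell culture doses of TGFβ are normally in the ng/ml range, which leaves this unit in doubt. In each group the arrays bear the letters A to D, called biological replicates, but the labels do not say whether the cultures were separate, so the spread behind the p-values may be technical. The labels also do not say whether the hairpin cells were a pool or a clone. Arrays of p53-depleted cells belong to the same series and were not analysed here.

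Nuclear receptors are transcription factors that bind DNA through paired zinc fingers and, in most members, a small lipophilic ligand through a separate domain. Many bind short repeats of a core motif as dimers with an RXR, recruit corepressors such as NCOR without ligand, and exchange them for coactivators when ligand binds. Others, the orphan receptors, have no established natural ligand. In breast cancer the family is best known for the oestrogen and progesterone receptors, which the MDA-MB-231 line is known to lack.

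Values are RMA signals, that is, background-corrected, normalized and summarised probe intensities on the log2 scale, and differences are log2(TGFβ) minus log2(untreated). The array medians lay between 4.62 and 4.66. The treatment itself was visible in 6 of 7 genes of a list of early TGFβ targets, which rose at an adjusted p of 0.05, SMAD7 by 1.81. The exception, SKIL, passed only when replicate letters were taken into account. The list was chosen with earlier results of these data known, so it is not an independent check. The 8 basal or mesenchymal markers had mean signals of 9.69 to 13.6, and the 8 luminal markers ranged more widely, from 2.86 to 11.4. The 8 measured leukocyte, fibroblast and endothelial markers had mean signals of 3.25 to 7.37, and their summed signal was 37.2 to 37.8 on the TGFβ arrays and 36.7 to 38.3 on the untreated arrays. Single markers moved: without the block CDH1 rose (0.90) and ERBB3 fell (-0.96) among the luminal markers, and with it PLAU of the basal markers rose (1.05) and the endothelial PECAM1 fell (-0.43). Their part in the results was not tested. The TGFβ array of letter A stood apart in RNA quality: its 3′ probe set of ACTB exceeded the 5′ probe set by 1.68, against 0.63 to 0.89 on the other 7 arrays, and for GAPDH by 0.54, against 0.06 to 0.14. Its part in the results below was not tested, and values without it are given for VDR, THRB, the NR4A receptors, CYP24A1, THBD and PPARD.

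RMA gives no detection call. As a guide to background, 22 genes restricted to other tissues had mean signals of 2.56 to 5.99, and 13 of the 33 receptors lay above this range while the other 20 lay within or below it. Signals of different probe sets do not rank transcripts, because probes differ in affinity, so each receptor is compared only with itself.

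No receptor passed the test when the groups were compared without regard to letter. At an adjusted p of 0.05 (limma, Benjamini-Hochberg over all genes) 0 of 33 were called, where 0.576% of all genes were. With an unadjusted p under 0.05 there were 4, VDR and RARA higher and NR2C1 and NR4A2 lower, against 8.14% of all genes. Because arrays of the same letter deviated together, the letter was also fitted as a replicate block, and then 3 of 33 receptors passed, against 3.57% of all genes: VDR and RARA rose, where 1.39% of all genes did, and THRB fell, where 2.18% did. A further count needs no model: the arrays of the groups did not overlap for 3 receptors, RARA and NR2E1 higher and NR2C1 lower, where 5.12% of all genes had no overlap (2.9% higher and 2.21% lower). The median difference of the 33 receptors was 0.02, against 0.01 over all genes, and the median size of the difference was 0.12, against 0.09. Differences reached from -0.59 for THRB to 1.02 for VDR, with 21 above 0 and 12 below; centring the arrays on their medians turned RXRB, THRA, ESRRA and ESRRG slightly below 0.

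**Figure D1:**
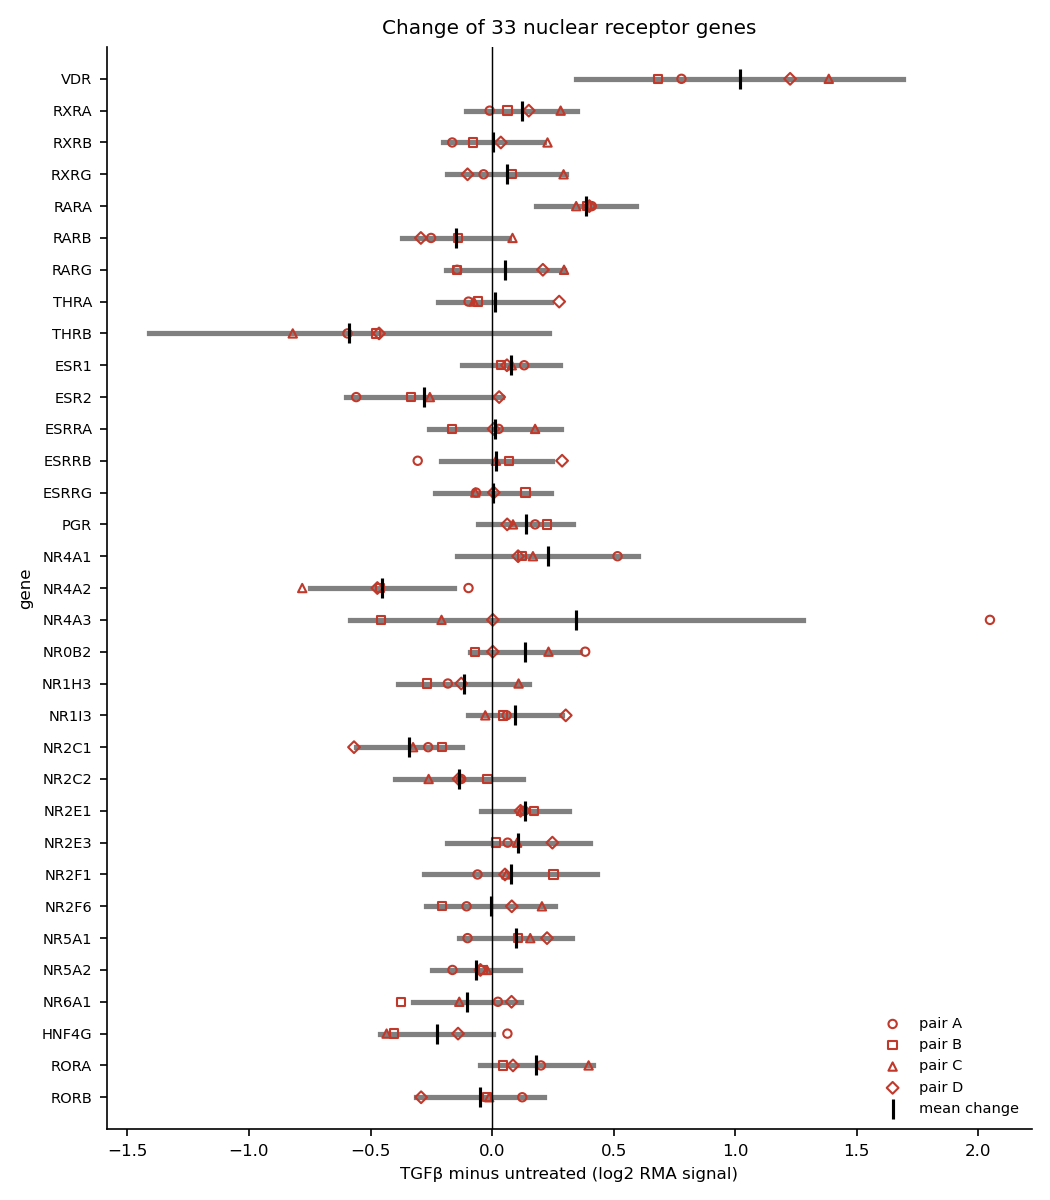
Difference in RMA log2 signal, TGFβ minus untreated, of each of the 33 measured receptors: black ticks are means, grey bars the 95% confidence intervals of the fit without the replicate block, and open symbols the 4 same-letter pair differences. VDR lies farthest to the positive side at 1.02 and THRB farthest to the negative side at -0.59, and the pair symbols of RARA nearly coincide.

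VDR (Entrez Gene 7421), the receptor for the active form of vitamin D, showed the largest difference of the 33. On its brightest probe set, 204254_s_at, the TGFβ arrays A, B, C and D read 6.27, 6.85, 7.76 and 7.50. The untreated arrays A, B, C and D read 5.49, 6.17, 6.38 and 6.27. Within every letter the TGFβ array was higher, but the groups overlapped, since the TGFβ array of letter A did not exceed all the untreated arrays, and both A arrays were the lowest of their group. The mean was 7.10 ± 0.67 with TGFβ and 6.08 ± 0.40 without (SD, n = 4 each), a difference of 1.02 with a 95% confidence interval of 0.34 to 1.69, or 2.03-fold. The adjusted p in limma was 0.268 without the block and 0.00111 with it, where the interval narrowed to 0.75 to 1.29. The pair differences were 0.78, 0.68, 1.39 and 1.23 for A, B, C and D. Without the TGFβ array of letter A, the difference was 1.29 and passed without the block too (adjusted p = 0.0429). That fit kept the untreated array of letter A, the lowest of its group. Without both A arrays the blocked difference was 1.10 (adjusted p = 0.000113).

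The 4 VDR probe sets all differed in the positive direction, by unequal amounts. On 204255_s_at the TGFβ arrays A to D read 4.85, 5.63, 6.32 and 6.35 and the untreated arrays 4.68, 5.00, 5.26 and 5.44, a difference of 0.69. On 204253_s_at the TGFβ arrays read 5.81, 5.60, 5.69 and 5.85 and the untreated arrays 5.14, 5.23, 5.44 and 5.37, a difference of 0.44. Here all 4 TGFβ arrays lay above all 4 untreated arrays, which was not so for the other 3 VDR probe sets. The dimmest, 213692_s_at, differed by 0.20, with 3.63 to 4.20 on the TGFβ arrays and 3.66 to 3.87 on the untreated arrays. With p adjusted over all probe sets and the letter as a block, 204254_s_at (0.005) and 204255_s_at (0.048) passed, where 1.75% of all probe sets did, and 204253_s_at (0.063) and 213692_s_at (0.48) did not. Without the block none of the 4 passed, where 0.256% of all probe sets did. All of these probe sets carry a suffix that marks a match to several transcripts. With the mean of the probe sets in place of the brightest, VDR differed by 0.59 and still passed in the blocked fit (adjusted p = 0.00491).

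**Figure D2:**
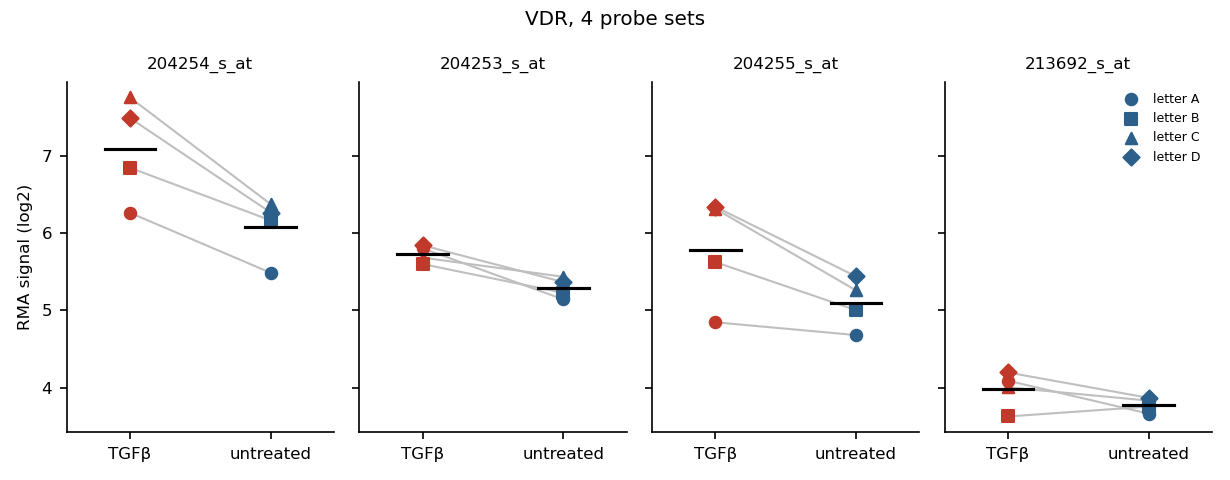
RMA log2 signal of the 4 VDR probe sets on each array, TGFβ (red) left and untreated (blue) right in every panel, with grey lines joining arrays of the same letter and black bars at the group means. On 204254_s_at the untreated array is the lower one in all 4 letters, with pair differences of 0.68 to 1.39, and on 213692_s_at the 8 arrays span only 3.63 to 4.20.

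Among genes of vitamin D metabolism and VDR target genes, 16 of 19 were measured and none passed either fit, with a median difference of 0.04. CYP24A1, which encodes the enzyme that degrades active vitamin D and is a classical VDR target, read 7.50, 5.85, 5.92 and 5.92 on the TGFβ arrays A to D and 5.27, 5.61, 5.60 and 5.52 on the untreated arrays. All TGFβ arrays lay above all untreated arrays, and the TGFβ array of letter A stood far above the rest. The mean signal of CYP24A1 was within the background range, and only the TGFβ array of letter A read above that range. The difference was 0.80 (SE 0.32), with an adjusted p of 0.517 without the block and 0.169 with it. Without the TGFβ array of letter A it was 0.40 (adjusted p = 0.181). LRP2, the endocytic receptor megalin that takes up vitamin D with its carrier protein, differed by 0.40 (adjusted p = 0.446). Its mean signal, 2.96, was within the background range, and its highest array was the TGFβ array of letter A (3.57). THBD, which encodes the anticoagulant thrombomodulin, averaged 8.04 with TGFβ and 8.52 without and was lower in all 4 letters, a difference of -0.48 (adjusted p = 0.533 without the block and 0.055 with it). Without the TGFβ array of letter A it was -0.69 (adjusted p = 0.0383).

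RARA (Entrez Gene 5914), a receptor for all-trans retinoic acid, separated the groups most cleanly, on its brightest probe set. RefSeq's promoter windows for RARA (250 bases before an annotated start, GRCh38.p14) are shown because it was called higher in the blocked fit. They were also chosen because both the core motif of nuclear receptors and the short motif bound by SMADs occur in them. Capitals mark AGGTCA and CAGAC or its reverse complement GTCTG.

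RARA promoter, chr17:40308930-40309179, plus strand: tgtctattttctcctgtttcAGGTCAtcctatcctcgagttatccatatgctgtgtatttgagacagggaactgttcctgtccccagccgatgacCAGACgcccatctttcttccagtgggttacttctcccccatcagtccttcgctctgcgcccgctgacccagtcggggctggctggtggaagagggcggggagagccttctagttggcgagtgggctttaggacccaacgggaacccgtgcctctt
RARA promoter, chr17:40317995-40318244, plus strand: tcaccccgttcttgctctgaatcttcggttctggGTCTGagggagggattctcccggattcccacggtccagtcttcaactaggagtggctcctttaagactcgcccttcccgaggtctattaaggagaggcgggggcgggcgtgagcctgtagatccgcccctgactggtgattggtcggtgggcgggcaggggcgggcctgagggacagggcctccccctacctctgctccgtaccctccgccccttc

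The remaining RARA window, chr17:40341916-40342165, held none of the motifs searched. Across 35116 windows of the same length from all genes, AGGTCA or TGACCT on either strand was in 12.1%, and CAGAC or GTCTG in 38%. Of 64 windows of the 28 measured receptors with an entry, 10 held AGGTCA or TGACCT and 28 held CAGAC or GTCTG. The AP-1 motif TGANTCA was in 3 of the 64, against 6.57% of all windows. A match of letters is a description of the window and not a binding site.

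On probe set 216300_x_at, RARA read 6.22, 6.17, 6.20 and 6.39 on the TGFβ arrays A to D and 5.81, 5.78, 5.86 and 5.99 on the untreated arrays. Every TGFβ array lay above every untreated array, and the 4 pair differences were nearly equal, at 0.35 to 0.41. The means were 6.25 ± 0.10 with TGFβ and 5.86 ± 0.09 without (SD, n = 4 each), a difference of 0.39 with a 95% interval of 0.18 to 0.59, or 1.31-fold. The adjusted p was 0.13 without the block and 0.0264 with it. With A left out of the blocked fit the call stood (adjusted p = 0.0323), and it was lost with B, C or D left out (adjusted p = 0.141, 0.0857 and 0.136). Another of its 5 probe sets, 203749_s_at, differed by 0.56, and the remaining ones by 0.31, 0.06 and 0.00. The groups did not overlap on 203749_s_at either, but they overlapped on the remaining ones. All but 1565358_at carry an _s_at or _x_at suffix. The first marks a match to several transcripts. The second, on 216300_x_at, marks probes that may also bind unrelated sequences. On 1565358_at RARA differed by 0.00, at a mean signal of 2.98 within the background range. With the mean of the 5 the difference was 0.26 and was not called in the blocked fit (adjusted p = 0.123).

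The other retinoid receptors were not called in either fit. RARB averaged 5.20 with TGFβ and 5.35 without, a difference of -0.15, and RARG differed by 0.05. RXRA, the common dimer partner of the non-steroid receptors, read 8.49, 8.54, 8.88 and 8.65 on the TGFβ arrays and 8.51, 8.48, 8.60 and 8.50 on the untreated arrays. Its groups overlapped, and the interval of its difference, 0.12, reached from -0.11 to 0.35. RXRB read 8.38, 8.45, 8.71 and 8.54 with TGFβ and 8.54, 8.52, 8.48 and 8.50 without, a difference of 0.01 with an interval of -0.20 to 0.21. RXRG lay within the background range, near a signal of 3, on all arrays.

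Of genes for retinoid metabolism and RAR targets, 17 of 21 were measured, 0 passed without the block and 1 rose with it, with a median difference of 0.06. That gene was CYP26B1, which encodes an enzyme that clears retinoic acid and is itself inducible by it. It read 7.08, 7.23, 7.11 and 6.87 on the TGFβ arrays A to D and 6.21, 6.92, 6.18 and 6.29 on the untreated arrays. The groups overlapped through the TGFβ array of letter D and the untreated array of letter B, while every letter's TGFβ array was the higher one. The difference was 0.67 (SE 0.16), with an adjusted p of 0.136 without the block and 0.00827 with it.

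THRB (Entrez Gene 7068), the thyroid hormone receptor β, fell in the blocked fit only. RefSeq's promoter windows (GRCh38.p14), shown because THRB was the only receptor called lower in either fit, hold none of the 3 motifs searched, so no letters are in capitals.

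THRB promoter, chr3:24495709-24495958, minus strand: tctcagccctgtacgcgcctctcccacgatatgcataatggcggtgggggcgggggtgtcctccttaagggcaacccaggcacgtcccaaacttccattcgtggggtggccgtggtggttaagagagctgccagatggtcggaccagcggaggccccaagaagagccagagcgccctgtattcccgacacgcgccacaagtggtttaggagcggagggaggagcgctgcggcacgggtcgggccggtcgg
THRB promoter, chr3:24494851-24495100, minus strand: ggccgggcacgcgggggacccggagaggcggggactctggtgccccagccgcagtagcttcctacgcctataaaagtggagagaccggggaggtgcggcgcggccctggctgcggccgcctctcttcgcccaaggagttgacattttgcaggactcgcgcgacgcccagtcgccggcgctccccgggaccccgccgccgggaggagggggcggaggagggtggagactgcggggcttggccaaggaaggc

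On 228716_at, THRB read 5.72, 4.46, 4.27 and 4.39 on the TGFβ arrays A to D and 6.32, 4.93, 5.09 and 4.86 on the untreated arrays. Both A arrays stood far above the other 3 of their group, so the groups overlapped widely, but in each letter the TGFβ array was lower, by 0.59, 0.48, 0.82 and 0.47. The means were 4.71 ± 0.68 with TGFβ and 5.30 ± 0.69 without (SD, n = 4 each), a difference of -0.59, or 0.665-fold. The 95% interval was -1.41 to 0.23 without the block and -0.79 to -0.39 with it, and the adjusted p was 0.792 without the block and 0.00575 with it. Without the TGFβ array of letter A the unblocked difference was -0.93 (adjusted p = 0.284), and without both A arrays the blocked difference stayed at -0.59 (adjusted p = 0.00428). A further probe set, 229657_at, differed by -0.50 and the remaining one, 207044_at, by 0.09. The mean signal of THRB was within the background range. THRA, the other thyroid hormone receptor, differed by 0.01 on its brightest probe set that names it alone, 35846_at, and by 0.10 to 0.17 on the other 3. Its gene overlaps NR1D1, which encodes REV-ERBα, on the opposite strand, and 3 probe sets name both genes. These differed by -0.03, -0.17 and 0.20 and cannot be attributed to either. Of 12 thyroid hormone metabolism and target genes 11 were measured and none passed either fit, with a median of 0.08; KLF9, a thyroid-hormone-responsive transcription factor, differed by -0.32 (adjusted p = 0.763) and TTR, the thyroxine carrier transthyretin, by 0.22 (adjusted p = 0.782).

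**Figure D3:**
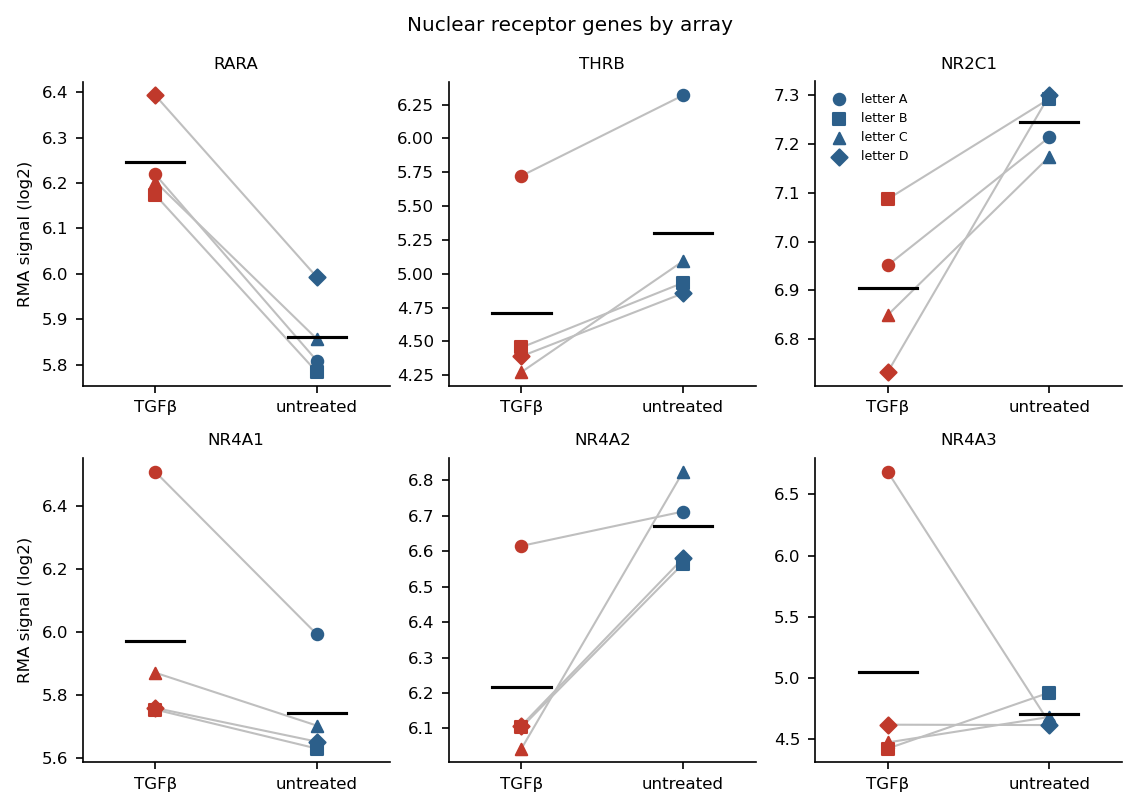
RMA log2 signal of 6 receptors on each array, TGFβ (red) left and untreated (blue) right, with grey lines joining arrays of the same letter and black bars at the group means; each panel has its own axis, which does not start at 0. RARA and NR2C1 separate without overlap, THRB differs within letters while its A arrays stand high, and NR4A3 reads 6.68 on the TGFβ array of letter A and 4.42 to 4.88 on the other 7 arrays.

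The NR4A receptors NR4A1, NR4A2 and NR4A3 are orphan receptors known as immediate early genes of stress and growth stimuli. NR4A2 read 6.62, 6.10, 6.04 and 6.11 on the TGFβ arrays A to D and 6.71, 6.57, 6.82 and 6.58 on the untreated arrays. The TGFβ array of letter A lay among the untreated arrays and the other 3 TGFβ arrays lay below all of them. The difference was -0.45 with an interval of -0.75 to -0.16, and it missed the threshold narrowly with the block (adjusted p = 0.0533) and clearly without it (0.267). Without the TGFβ array of letter A it was -0.59 and passed even without the block (adjusted p = 0.0276). All 3 probe sets of NR4A2 had a lower mean with TGFβ, and all 3 carry an _s_at or _x_at suffix. On 216248_s_at the pair of letter A went the other way, by 0.18.

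NR4A1 and NR4A3 were not called, and the TGFβ array of letter A was their highest. The mean signals of both genes were within the background range. NR4A1 read 6.51, 5.75, 5.87 and 5.76 on the TGFβ arrays and 5.99, 5.63, 5.70 and 5.65 on the untreated arrays. The difference was 0.23 (adjusted p = 0.836), and it was 0.05 without the TGFβ array of letter A (adjusted p = 0.943). These values are from 202340_x_at, and the other NR4A1 probe sets, 211143_x_at and 210226_at, differed by -0.0005 and 0.01. NR4A3 read 6.68, 4.42, 4.47 and 4.62 on the TGFβ arrays and 4.64, 4.88, 4.68 and 4.62 on the untreated arrays. Its difference of 0.35 (SE 0.42) rested on the TGFβ array of letter A, and without that array it turned to -0.20 (adjusted p = 0.615). This is the array with the widest 3′ to 5′ gap of ACTB and GAPDH.

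The receptors that define hormone-responsive breast cancer were low or even between groups. ESR1, oestrogen receptor α, averaged 5.83 ± 0.10 with TGFβ and 5.76 ± 0.08 without (SD, n = 4 each), within the background range, a difference of 0.08. Its 9 probe sets include 205225_at, which read 2.44 to 2.60 on the TGFβ arrays and 2.31 to 2.59 on the untreated arrays, at the bottom of the scale. PGR, the progesterone receptor, averaged 3.26 with TGFβ and 3.12 without. ESR2, oestrogen receptor β, read 4.41, 4.15, 4.59 and 4.73 with TGFβ and 4.97, 4.48, 4.85 and 4.70 without, a difference of -0.28 with an interval of -0.60 to 0.04 (adjusted p = 0.71). Of these 3 receptors none lay above the background range. The oestrogen-related receptor ESRRA, an orphan regulator of mitochondrial genes, did: it read 8.09, 7.61, 8.01 and 7.98 with TGFβ and 8.06, 7.77, 7.83 and 7.97 without, and its difference of 0.01 had an interval of -0.26 to 0.28. ESRRB and ESRRG lay within the background range and differed by 0.02 and 0.00. Among oestrogen receptor targets 16 of 18 were measured, 0 passed without the block and 1 fell with it, with a median of 0.03. It was CA12, a carbonic anhydrase, with a difference of -0.38 and an adjusted p of 0.0285 in the blocked fit and 0.483 without the block.

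The testicular receptors NR2C1 and NR2C2 are orphan receptors that can occupy the core motif in place of ligand-bound receptors. On their brightest probe sets both were lower with TGFβ in all 4 letters, but neither was called. NR2C1 read 6.95, 7.09, 6.85 and 6.73 on the TGFβ arrays A to D and 7.21, 7.29, 7.17 and 7.30 on the untreated arrays. All TGFβ arrays lay below all untreated arrays, with means of 6.90 ± 0.15 with TGFβ and 7.25 ± 0.06 without (SD, n = 4 each). The difference was -0.34 with an interval of -0.56 to -0.12, and the adjusted p was 0.243 without the block and 0.0763 with it. On the other NR2C1 probe sets, 210531_at, 229956_at and 210530_s_at, the groups overlapped. These differed by -0.19, -0.13 and -0.05. NR2C2 read 8.32, 8.75, 8.34 and 8.46 with TGFβ and 8.44, 8.77, 8.60 and 8.59 without, a difference of -0.14 with an interval of -0.40 to 0.13. Its other probe set, 206038_s_at, differed by 0.03.

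The COUP-TF receptors, orphan receptors that mostly repress and that are known from the development of many tissues, were even between the groups. NR2F6 had the highest signal of the 33 receptor probe sets: 9.88, 9.55, 10.09 and 9.85 on the TGFβ arrays A to D and 9.98, 9.76, 9.89 and 9.77 on the untreated arrays. Its groups overlapped fully, and the difference of -0.01 had an interval of -0.27 to 0.26. NR2F1 read 7.29, 7.999, 7.78 and 7.87 with TGFβ and 7.35, 7.75, 7.72 and 7.82 without. Both A arrays were the lowest of their group, and the difference was 0.08 with an interval of -0.28 to 0.43. Of the remaining NR2 receptors, NR2E1, known from neural stem cells, read 2.86, 3.00, 2.93 and 2.96 with TGFβ and 2.73, 2.83, 2.81 and 2.84 without. Its groups did not overlap, but the difference was 0.14 (adjusted p = 0.779) and lay at the bottom of the background range. NR2E3, a photoreceptor regulator, differed by 0.11.

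NR1H3, the oxysterol receptor LXRα, read 6.78, 6.60, 7.14 and 6.96 on the TGFβ arrays A to D and 6.96, 6.87, 7.03 and 7.09 on the untreated arrays. The groups overlapped, and the difference of -0.12 had an interval of -0.39 to 0.15. Of the targets of sterol and bile acid receptors 19 of 20 were measured, 0 passed without the block and 1 rose with it, with a median of 0.05. This was ABCA1, the cholesterol exporter that is a classical LXR target: it read 7.87, 8.39, 7.65 and 7.85 with TGFβ and 6.40, 7.20, 7.07 and 7.21 without. All TGFβ arrays lay above all untreated arrays. The difference was 0.97 (SE 0.20), with an adjusted p of 0.0774 without the block and 0.00409 with it.

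RORA, an orphan receptor that activates clock genes, read 3.67, 3.58, 3.96 and 3.78 on the TGFβ arrays A to D and 3.46, 3.53, 3.56 and 3.69 on the untreated arrays, all within the background range. The TGFβ array was higher in every letter, and the difference of 0.18 was not called (adjusted p = 0.753). RORB, known from retina and brain, differed by -0.05. All 8 clock genes bound by REV-ERB and ROR receptors were measured, and 0 passed without the block. With it BMAL1, the clock activator repressed by REV-ERBs, rose and NFIL3, a transcriptional repressor of the clock, fell. BMAL1 read 7.52, 7.88, 7.69 and 7.73 with TGFβ and 6.84, 7.22, 7.29 and 7.42 without, a difference of 0.51 (adjusted p = 0.0145 with the block and 0.178 without). NFIL3 differed by -0.44 (adjusted p = 0.0177 with the block and 0.217 without).

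The remaining receptors were called in neither fit, and all but NR6A1, with a mean signal of 6.07, lay within the background range. HNF4G, a relative of the liver receptor HNF4A, read 3.95, 3.64, 3.77 and 3.78 on the TGFβ arrays A to D and 3.88, 4.05, 4.21 and 3.92 on the untreated arrays. The groups overlapped through the TGFβ array of letter A, and the difference was -0.23 (adjusted p = 0.632). NR0B2, a receptor without a DNA-binding domain that represses others, differed by 0.14. The xenobiotic receptor NR1I3 differed by 0.10, the gonadal and adrenal regulator NR5A1 by 0.10, the liver and embryonic regulator NR5A2 by -0.07 and the germ cell factor NR6A1 by -0.10.

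**Figure D4:**
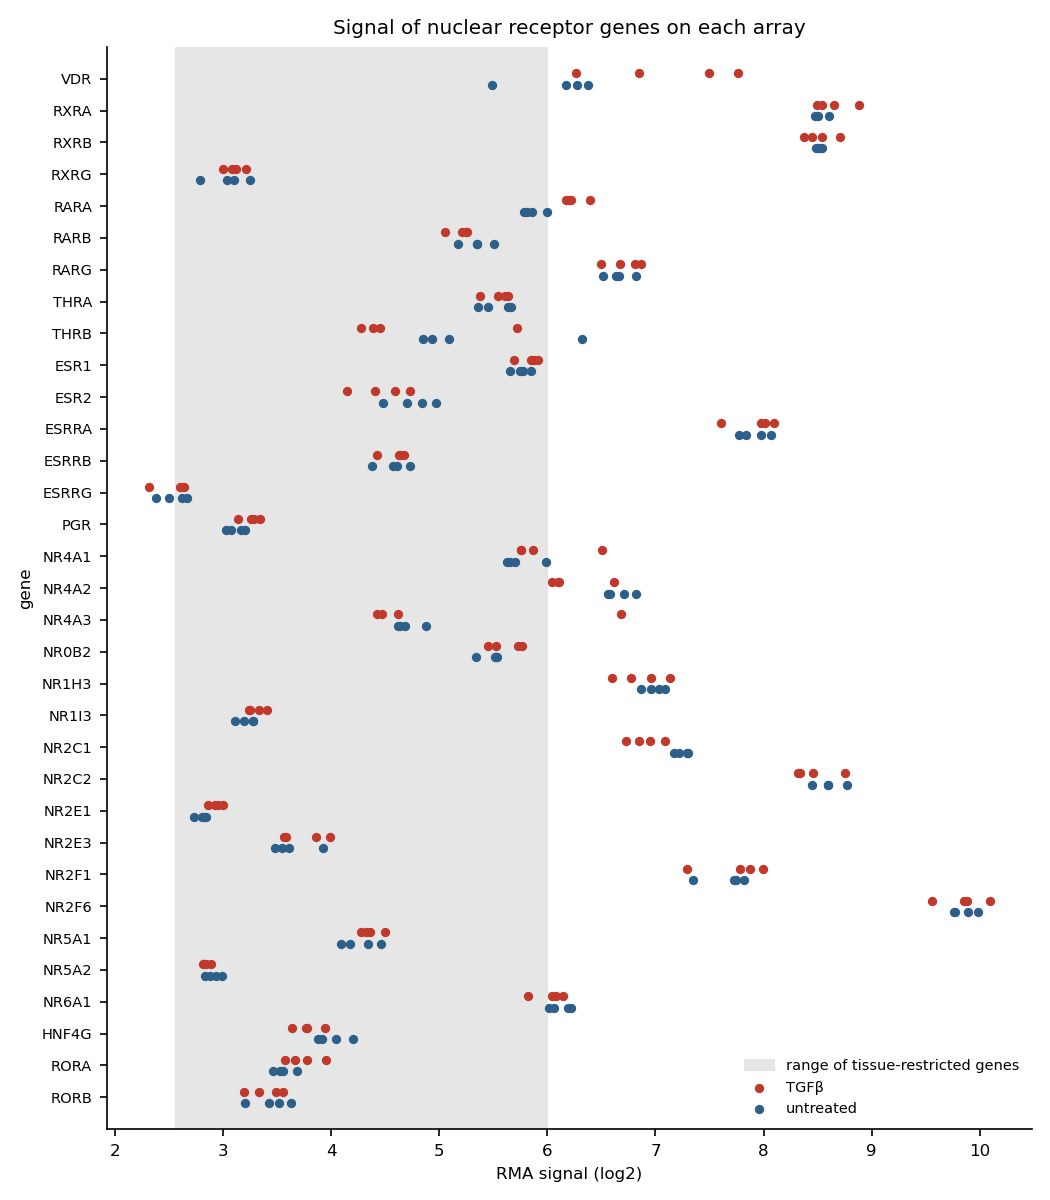
RMA log2 signal of the 33 receptors on each array, with the 4 TGFβ arrays (red) drawn above the 4 untreated arrays (blue) in each row. The grey band spans the mean signals of 22 genes restricted to other tissues, 2.56 to 5.99, and 13 receptors have means above it.

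The direction of small differences near background was not even. Of the 22 tissue-restricted genes used as a guide, 21 differed in the positive direction with a median of 0.08, and 14 of the 20 receptors within or below their range did so, with a median of 0.07. Among the 13 receptors above the range 7 differed in the positive and 6 in the negative direction. The direction was the same in all 4 letters for 8 receptors higher and 5 lower, where 22.4% of all genes had the same direction in all 4.

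Letters themselves separated some receptors. In the model with treatment and letter, an F test over letters passed at an adjusted p of 0.05 for VDR (0.00885), THRB (0.00107) and NR2F1 (0.0415), which is 9.09% of the 33 receptors against 10.2% of all genes. In VDR and NR2F1 the A arrays were the lowest of both groups, and in THRB they were the highest.

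Coregulators, which nuclear receptors recruit to open or close chromatin, were measured for 21 of 24 genes. Of these 15 differed in the negative direction, 71.4% against 47.2% of all genes, with a median of -0.12. Without the block 1 fell, where 0.223% of all genes did, and with it 3 fell, where 2.18% did. The list was chosen with earlier results of these data known, so these shares do not test it. PPARGC1A, the coactivator PGC-1α, read 3.87, 3.46, 4.12 and 3.88 on the TGFβ arrays A to D and 4.53, 4.48, 4.52 and 4.69 on the untreated arrays. All TGFβ arrays lay below all untreated arrays, at signals within the background range. The difference was -0.72 (SE 0.13, adjusted p = 0.0475), it passed in 1 of 8 fits that left out an array, and with the mean of its probe sets it was -0.31 (adjusted p = 0.396). The coactivators NCOA2 and NCOA7 fell with the block, by 0.56 and 0.44 on the log2 scale (adjusted p = 0.0245 and 0.0391), and did not pass without it (0.556 and 0.443).

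The 5 PPAR and corticosteroid receptors, which are not among the 33, included 1 gene that passed without the block: NR3C2, the mineralocorticoid receptor, differed by -1.08 (adjusted p = 0.0045). With the block PPARD rose (0.44, adjusted p = 0.0405) and PPARG fell (-0.38, adjusted p = 0.0335). PPARD was not called in any blocked fit without a letter (adjusted p = 0.061 to 0.155), and without the TGFβ array of letter A its unblocked difference was 0.25 (adjusted p = 0.553). Over the coregulators, target lists and these receptors together, 113 of 127 genes were measured. Without the block 2 of them passed, 1.77% against 0.576% of all genes, and with it 11 passed, 4 higher and 7 lower, 9.73% against 3.57%. Of these calls, 1 without the block and 3 with it were PPAR and corticosteroid receptors. The lists were chosen with earlier results of these data known, so these shares do not test them.

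**Figure D5:**
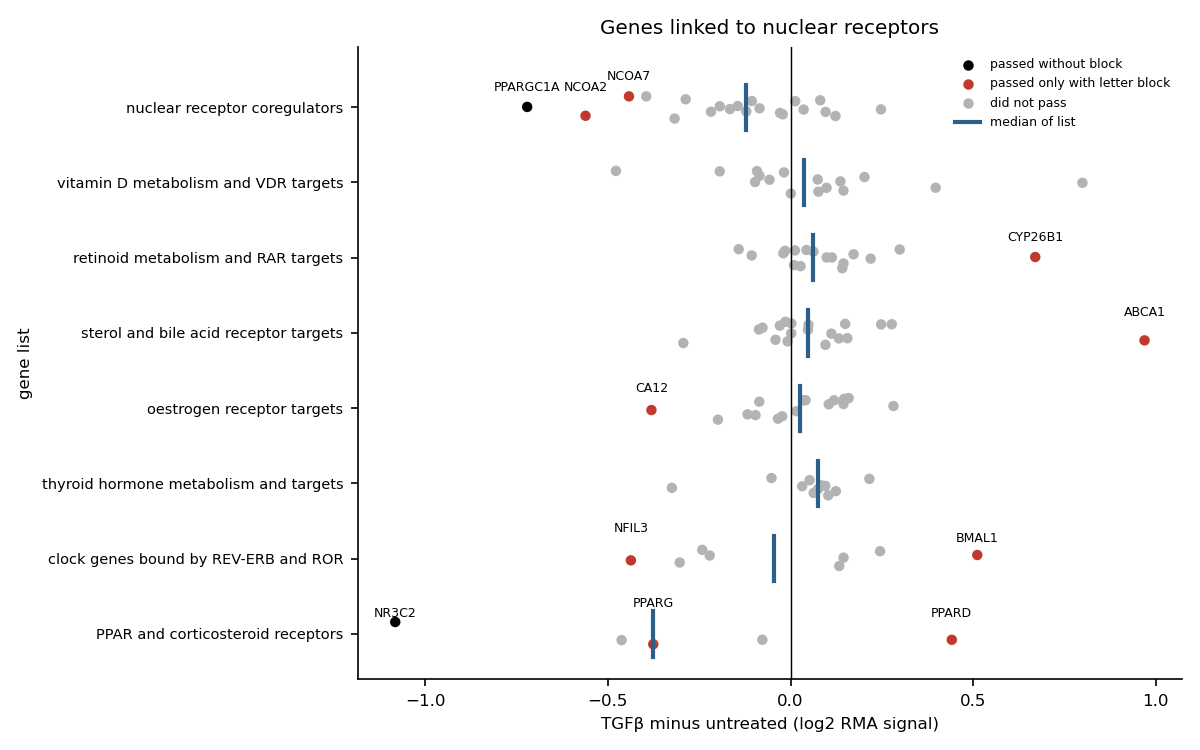
Difference in RMA log2 signal, TGFβ minus untreated, of every measured gene of 8 related lists, 1 row per list, with a blue tick at its median and genes that passed named and coloured by fit (black without the block, red only with it). The coregulator median lies at -0.12 and the retinoid median at 0.06, and NR3C2 lies farthest to the negative side at -1.08.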

How the data were processed

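Total RNA of MDA-MB-231 cells was hybridised to 8 Affymetrix arrays, 4 with TGFβ and 4 untreated, grouped from the labels. The authors deposited 1 RMA value per probe set, per the submitters' processing notes; these deposited values are taken as log2 from their range, since no header states the base. For the RMA version, the arrays normalized together and the genome build the entry is: not given in the sources used here. The number of arrays limits the precision.

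Of 54613 probe sets, 41091 named 1 gene in the platform annotation, 1801 several and 11721 none; 41037 were matched in RefSeq by Entrez identifier. The probe set with the highest mean stood for each of 19775 genes. Probe sets of 1 gene can disagree.

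The comparison used limma 3.58.1 under R 4.3.3 (two-sided moderated tests from lmFit and eBayes), with p adjusted by Benjamini-Hochberg over all genes, without the letter and, as an alternative, with it as a replicate block. Same-letter arrays deviated together from their group means, with correlations over 19775 genes of 0.49, 0.69, 0.34 and 0.30 for A to D, so the letters were taken to pair the arrays. In both directions the best match of an A, B or C array was its own letter, and that of a D array was not. This pairing comes from the data, since the labels do not say what a letter stands for. Blocked values stand beside results whose call they change.

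The other alternatives were the upper 60% of signals, centring, quantile normalization, probe-set means per gene and a robust prior with trend. Further ones dropped probe sets with an _s_at or _x_at suffix or left out each array in turn. Blocked fits without each letter, or with the robust prior, centring or probe-set means, were added after seeing the data. The fits were tested on simulated data.

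Members and gene lists were chosen with earlier results of these data known. Single arrays are given for receptors called in either fit, the 6 others with the smallest p, the 8 with the highest signal, and, chosen after their values were seen, NR4A1 and NR4A3 (among related genes THBD, likewise). Related genes are named if called in either fit, otherwise the 2 with the smallest p of a list. Promoter windows are RefSeq's (GRCh38.p14), with entries for 28 of the 33 receptors. VDR and NR4A2 had no entry. Plots came from Python 3.11.15 with matplotlib 3.10.9. The p53-depleted arrays were not used here.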

Additional observations from a re-analysis of the deposited data

Results flagged for a closer look

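In 7 of 72 groups of 4 arrays, 1 array lay far from the other 3 by Dixon's test, a criterion that chance alone meets in about 5% of groups. Of the 7, 4 were the TGFβ array of letter A and 2 the untreated array of letter A. On the TGFβ array of letter A, NR4A1 read 6.508 (5.753 to 5.87 on the other 3), NR4A2 read 6.615 (6.043 to 6.108) and NR4A3 read 6.684 (4.425 to 4.62). THRB read 5.723 there, against 4.273 to 4.455 on the other TGFβ arrays, and 6.318 on the untreated array of letter A, against 4.855 to 5.093 on the other untreated arrays. NR0B2 read 5.342 on the untreated array of letter A, below the 5.521 to 5.536 of the others. ESRRG read 2.317 on the TGFβ array of letter C, below the 2.601 to 2.637 of the others and at the bottom of the scale. The TGFβ array of letter A is also the one with the widest 3′ to 5′ gap of ACTB; its part in these values was not tested.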

How the results depend on the processing

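With the replicate block, calls over all genes numbered 705 in place of 114, receptors 3 in place of 0, VDR probe sets 2 in place of 0 and related genes 11 in place of 2. With 1 array left out they ranged over 46 to 232 genes, 0 to 2 receptors (VDR and NR4A2 without the TGFβ array of letter A) and 1 to 2 related genes; the blocked fits without A, B, C and D called 1304, 288, 321 and 356 genes, 4, 2, 2 and 2 receptors, 17, 4, 3 and 5 related genes, and 1 to 2 VDR probe sets. Blocked fits with a robust prior, centring and probe-set means called 882, 738 and 613 genes, 4, 4 and 2 receptors, and 14, 11 and 6 related genes; the robust and centred ones called 2 and 2 VDR probe sets. Related calls fell to 1 with the upper 60% of signals and to 1 without _s_at and _x_at probe sets. That alternative has no value for VDR, RXRA, ESRRG, NR4A2, NR2C2 and NR2F6. In that alternative RARA was represented by 1565358_at, which differed by 0.00.

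Receptors whose sign turned all had small differences or 1 array deciding them. With 1 array left out, differences reached -0.058 to 0.052 for RXRB, -0.025 to 0.128 for RXRG, -0.046 to 0.067 for THRA, -0.045 to 0.117 for ESRRA, -0.046 to 0.073 for ESRRB, -0.0503 to 0.079 for ESRRG, -0.198 to 0.555 for NR4A3, -0.028 to 0.225 for NR2F1, -0.0897 to 0.0903 for NR2F6, -0.129 to 0.017 for RORB and -0.209 to 0.027 for NR3C1. Centring gave RXRB -0.008, THRA -0.00225, ESRRA -0.00225 and ESRRG -0.011; quantile normalization gave ESRRB -0.0013, ESRRG -0.0205 and NR2F6 0.00659. Probe-set means gave RXRB -0.039, RARG -0.057, ESRRA -0.029, ESRRG -0.069, NR5A2 0.023 and RORB 0.064. Without _s_at and _x_at probe sets ESR1 was -0.011 and NR5A2 0.082. The blocked fit without letter A put NR4A3 at -0.221. The causes were not tested. Signal near background limits the 20 receptors within or below the guide range.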
